A study of Mus musculus with 32 samples.

Results

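Injured spinal cords given Gsx1 were compared with injured cords given Nkx6.1, both taken 3 days after injury, by bulk RNA sequencing. Libraries were chosen by their titles alone, which gave 3 Gsx1 and 3 Nkx6.1 libraries, 6 of the 32 in the series. The mice were C57BL/6J, 8 to 12 weeks of age, and each library was made from the cord segment around the lesion. All 6 cords were injured, so neither group is an untreated cord, and 3 injured control libraries and 3 sham libraries of the same day give the levels without either factor. The sources used here do not give how the factors were delivered, into which cells, or how the injury was made. Nothing in the labels ties each library to its own animal, and the p-values then describe the spread among these libraries only.

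Gsx1 and Nkx6.1 are homeodomain transcription factors of the embryonic spinal cord. Gsx1 is made in dorsal progenitors, where it takes part in the choice of interneuron types and works alongside Notch signalling, whereas Nkx6.1 is made in ventral progenitors under Hedgehog signalling and is needed for motor neurons and some ventral interneurons. In an injured adult cord the first days bring invading macrophages, dividing glia, astrocytes that turn reactive and fibroblasts that begin a scar.

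The total count was 16.3 to 17.2 M (mega counts) per library in the Gsx1 group and 12.9 to 18.1 M in the Nkx6.1 group. Levels below are CPM, in which each count is divided by its library's TMM-scaled total, and differences are log2 fold changes, Gsx1 minus Nkx6.1, with their standard error (SE). The SE comes from the edgeR fit, whose spread was estimated over all 32 libraries and not from the 6 alone. The libraries within each group were unequal. On the leading principal component of the 6 libraries, which held 53.1% of the variance, the Gsx1 libraries lay at -14.2, 34.3 and 45.1 and the Nkx6.1 libraries at -40.6, -58.0 and 33.5 (replicates 1, 2 and 3). Nkx6.1 replicate 3 thus lay among the Gsx1 libraries and Gsx1 replicate 1 lay toward the other Nkx6.1 libraries. Many counts and list medians below are also given with 1 library left out, including these. Both were picked from these same data for lying toward the other group. Leaving either out can therefore raise the number of calls by itself, and calls made that way are not separate support. All 15 listed Hox genes of brachial to lumbar cord and all 16 listed pan-neuronal genes passed the expression filter. That filter used all 32 libraries, so a pass does not check the tissue of these 6.

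The transcripts of the factors themselves did not follow the labels. Gsx1 (chromosome 5, 147188696 to 147190947, GRCm38) had 3, 1 and 4 reads in the Gsx1 libraries and 7, 9 and 1 reads in the Nkx6.1 libraries, at the edge of detection in all 6. Without the expression filter, which it did not pass, its log2 fold change was -1.27 ± 0.87 (SE, 3 libraries a group; 95% interval -2.98 to 0.43, adjusted p = 0.575 in edgeR). Nkx6-1 (chromosome 5, 101658139 to 101664996, GRCm38) stood at 6.29, 7.08 and 9.62 CPM in the Gsx1 libraries and at 3.62, 6.11 and 5.71 CPM in the Nkx6.1 libraries. The libraries labelled Nkx6.1 therefore held the lower Nkx6-1 levels without overlap, with a log2 fold change of 0.57 ± 0.23 that missed the threshold (SE, adjusted p = 0.281 in edgeR). In the injured control libraries Nkx6-1 stood at 7.55, 8.98 and 7.00 CPM. The counted transcripts do not show either factor's delivery, and the groups below are those of the labels.

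Of 16314 genes tested, 13 passed an adjusted p under 0.05 in edgeR's quasi-likelihood test between Gsx1 and Nkx6.1 cords at 3 days. Of these, 11 (0.0674% of the genes tested) were higher in Gsx1 cords and 2 (0.0123%) were lower. They are described below by the known role of their products. The higher genes differed by 0.67 to 1.90 on the log2 scale. In each of the 13 the CPM of the 3 Gsx1 and the 3 Nkx6.1 libraries did not overlap, including Gsx1 replicate 1 and Nkx6.1 replicate 3. Such a lack of overlap was met in 5.88% of all tested genes with Gsx1 higher and in 5.85% with Gsx1 lower.

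**Figure D1:**
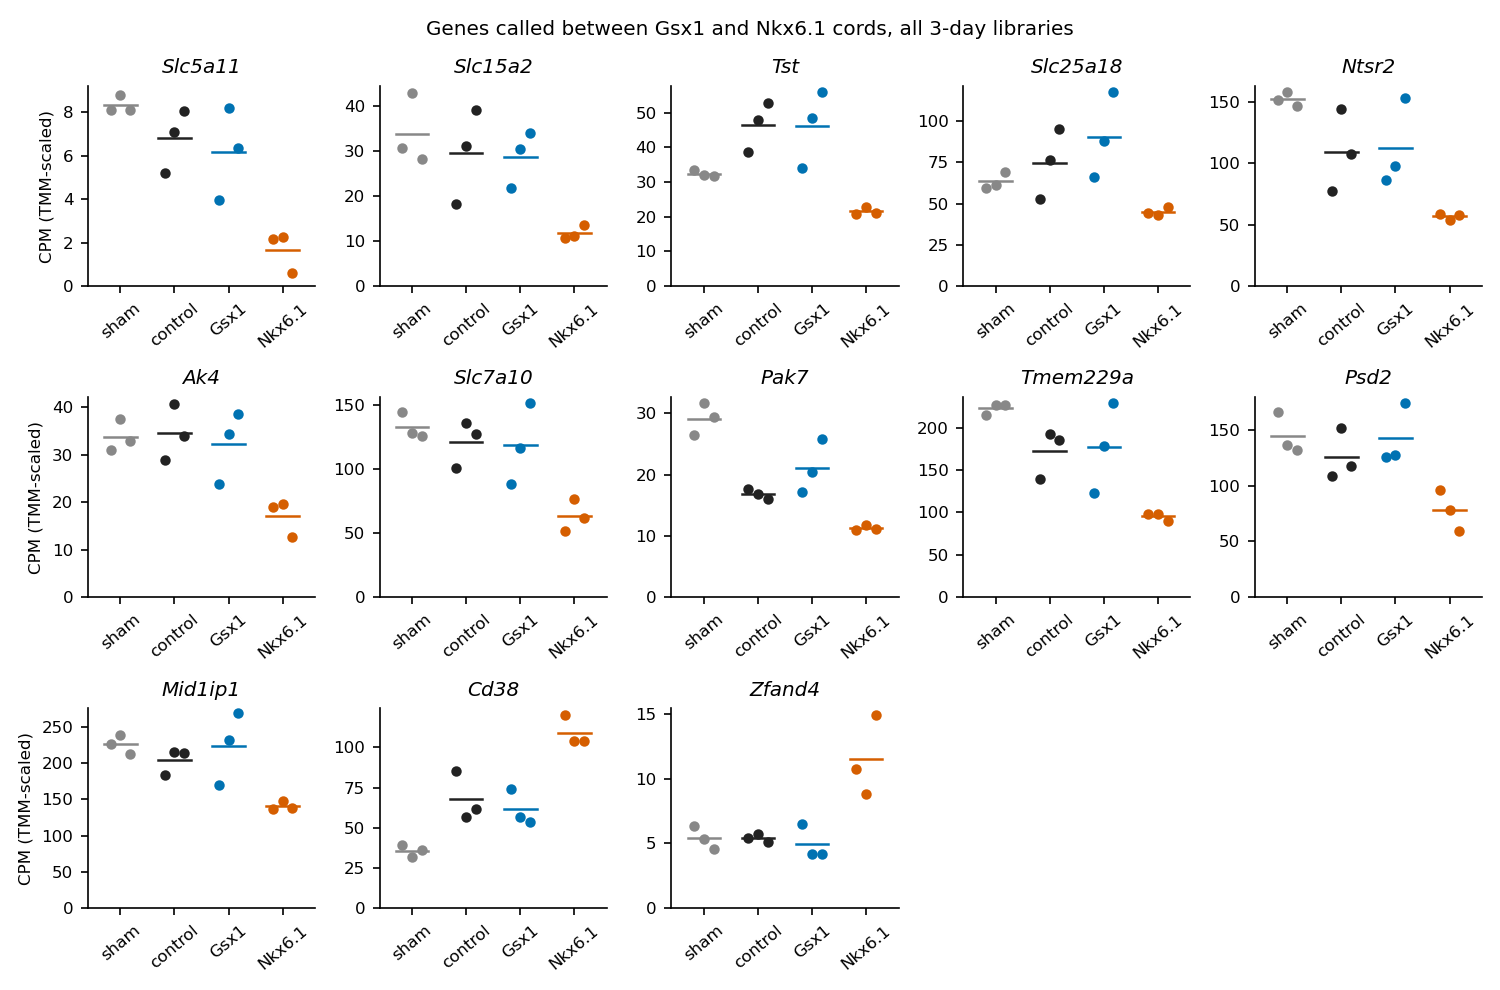
TMM-scaled CPM (y axis, from 0) of the 13 genes called between Gsx1 and Nkx6.1 cords, in the 3 sham, 3 injured control, 3 Gsx1 and 3 Nkx6.1 libraries of 3 days; points are libraries in replicate order and lines are group means. In every panel the Nkx6.1 points lie outside the ranges of the control and sham points, and the Gsx1 points overlap those of the control.

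Slc15a2, which codes for the proton-coupled peptide transporter PEPT2 (chromosome 16, 36750177 to 36784962, GRCm38), stood at 21.6, 30.3 and 33.9 CPM in the Gsx1 libraries. In the Nkx6.1 libraries it stood at 10.7, 11.1 and 13.6 CPM. The highest Nkx6.1 library was thus below the lowest Gsx1 library, and the mean was 28.6 ± 6.32 against 11.8 ± 1.54 CPM (SD, n = 3 each). The log2 fold change was 1.27 ± 0.20 (SE, adjusted p = 0.0119 in edgeR), a 2.42-fold difference and the smallest p of all genes.

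Slc5a11, a sodium-driven myo-inositol carrier, had the largest fold change of the 13, at a low level. It stood at 3.96, 8.23 and 6.36 CPM in Gsx1 cords and at 2.16, 2.28 and 0.592 CPM in Nkx6.1 cords. Its log2 fold change was 1.90 ± 0.37 (SE, adjusted p = 0.0338 in edgeR). Slc7a10, the carrier Asc-1 for small neutral amino acids including D-serine and glycine, stood at 88.1, 116 and 151 CPM against 51.4, 76.5 and 61.9 CPM. The log2 fold change of Slc7a10 was 0.90 ± 0.17 (SE, adjusted p = 0.0338 in edgeR). Slc25a18, a mitochondrial glutamate carrier, stood at 66.2, 87.7 and 117 CPM against 44.2, 43.2 and 47.9 CPM, with a log2 fold change of 1.00 ± 0.19 (SE, adjusted p = 0.0331 in edgeR). The Nkx6.1 libraries lay close together in Slc25a18 while the Gsx1 libraries were spread, with replicate 3 highest. Exons of Slc25a18 and Slc7a10 overlap exons of the oppositely directed genes Atp6v1e1 and Lrp3 in the GENCODE annotation, and whether counting used strand is not stated by these sources.

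Ntsr2, a neurotensin receptor found on astrocytes (chromosome 12, 16653382 to 16660227, GRCm38), stood at 85.9, 97.7 and 153 CPM in Gsx1 cords and at 58.8, 53.5 and 58.1 CPM in Nkx6.1 cords. Its log2 fold change was 0.98 ± 0.18 (SE, adjusted p = 0.0247 in edgeR). Pak7, a p21-activated kinase of nervous tissue also named Pak5, stood at 17.1, 20.4 and 25.8 CPM against 10.9, 11.8 and 11.2 CPM, with a log2 fold change of 0.90 ± 0.16 (SE, adjusted p = 0.0222 in edgeR). Psd2, an exchange factor for Arf6, stood at 126, 128 and 174 CPM against 96.5, 78.3 and 59.5 CPM. The log2 fold change of Psd2 was 0.87 ± 0.15 (SE, adjusted p = 0.0222 in edgeR). Tmem229a, a membrane protein, stood at 123, 178 and 229 CPM against 98.2, 98.2 and 89.4 CPM, and its log2 fold change was 0.89 ± 0.18 (SE, adjusted p = 0.0354 in edgeR). Gsx1 replicate 1 was the lowest of its group in each of these 4 genes, and still above all 3 Nkx6.1 libraries.

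Tst, the mitochondrial thiosulfate sulfurtransferase that detoxifies cyanide and handles sulfide, stood at 34.2, 48.6 and 56.0 CPM in Gsx1 cords and at 20.9, 22.7 and 21.1 CPM in Nkx6.1 cords. Its log2 fold change was 1.10 ± 0.21 (SE, adjusted p = 0.0338 in edgeR). Ak4, a mitochondrial adenylate kinase, stood at 23.9, 34.3 and 38.5 CPM against 18.9, 19.5 and 12.7 CPM, with a log2 fold change of 0.92 ± 0.18 (SE, adjusted p = 0.0338 in edgeR). Mid1ip1, which promotes the polymerization of acetyl-CoA carboxylase in fatty acid synthesis, had the smallest difference of the 13, 0.67 ± 0.12 (SE, adjusted p = 0.0247 in edgeR). It stood at 170, 232 and 270 CPM against 137, 147 and 138 CPM. Its exons overlap those of an oppositely directed predicted gene.

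The lower genes were Cd38 and Zfand4. Cd38, a surface enzyme of leukocytes and glia that consumes NAD (chromosome 5, 43868553 to 43912375, GRCm38), stood at 74.3, 56.6 and 53.7 CPM in Gsx1 cords and at 120, 104 and 104 CPM in Nkx6.1 cords. Its log2 fold change was -0.83 ± 0.13 (SE, adjusted p = 0.0128 in edgeR), which makes the Nkx6.1 level 1.77-fold higher. Zfand4, a zinc finger gene (chromosome 6, 116264222 to 116330302, GRCm38), stood at 6.46, 4.20 and 4.14 CPM against 10.8, 8.80 and 14.9 CPM. The log2 fold change of Zfand4 was -1.22 ± 0.24 (SE, adjusted p = 0.0354 in edgeR).

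**Figure D2:**
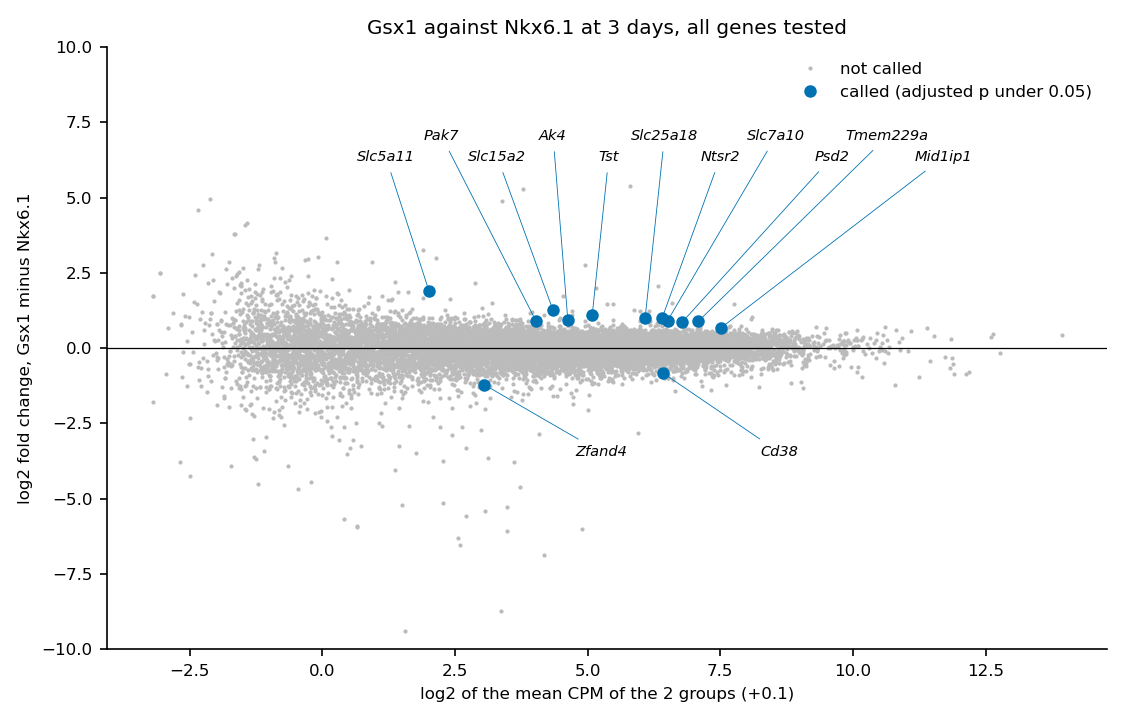
Log2 fold change of Gsx1 minus Nkx6.1 at 3 days (y axis) against the log2 of the mean CPM of both groups (x axis) for the 16314 genes tested, with the 13 called genes in blue. The called genes lie between -1.22 and 1.90, and genes with larger fold changes, mostly at low levels, did not pass.

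Since both factors are homeodomain proteins, whose common DNA core is TAAT, the 250 bases before the annotated start of the called genes were searched for TAAT and for the palindrome TAATTA, which contains it, on both strands. RefSeq promoter windows (GRCm38.p6) were matched for 11 of the 13. These 11 genes had 15 windows, since Ak4 and Zfand4 have several annotated starts. TAAT was present in 5 of the 15 windows and in 54.9% of all 32851 windows. TAATTA was present in 0 of the 15 and in 4.84% of all windows. The windows of Slc15a2 (chr16:36784963-36785212, minus strand), of Pak7 (chr2:136387968-136388217, minus strand) and of the first start of Zfand4 (chr6:116263969-116264218, plus strand) are shown as examples of genes higher and lower in Gsx1 cords, 5′ to 3′ toward the start, with TAAT or its complement ATTA in capitals. They hold 3, 1 and 0 matches. The second window of Zfand4 and the window of Cd38, the other lower gene, hold 1 match each. Among the higher genes the first window of Ak4 holds 1. Those of Mid1ip1, Ntsr2, Slc25a18, Slc5a11, Slc7a10 and Tmem229a hold 0. A match is a description of the letters only.
Slc15a2: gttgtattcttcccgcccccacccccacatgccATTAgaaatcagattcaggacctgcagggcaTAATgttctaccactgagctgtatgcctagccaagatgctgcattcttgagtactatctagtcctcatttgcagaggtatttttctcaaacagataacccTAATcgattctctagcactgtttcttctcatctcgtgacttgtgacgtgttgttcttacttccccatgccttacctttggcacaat
Pak7: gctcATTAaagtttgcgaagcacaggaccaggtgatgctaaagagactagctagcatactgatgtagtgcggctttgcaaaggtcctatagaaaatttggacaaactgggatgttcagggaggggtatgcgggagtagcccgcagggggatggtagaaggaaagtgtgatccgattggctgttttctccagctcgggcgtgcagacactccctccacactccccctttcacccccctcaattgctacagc
Zfand4: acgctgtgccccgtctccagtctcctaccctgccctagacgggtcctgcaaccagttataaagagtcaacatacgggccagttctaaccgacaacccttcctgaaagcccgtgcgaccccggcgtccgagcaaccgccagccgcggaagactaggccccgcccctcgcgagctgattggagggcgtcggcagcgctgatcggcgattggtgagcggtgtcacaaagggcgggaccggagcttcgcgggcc

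The injured control and sham cords of the same day place these levels. In all 13 genes the 3 Nkx6.1 libraries lay outside the range of the 3 control libraries and outside the range of the 3 sham libraries. The Gsx1 libraries overlapped the control libraries in all 13, and overlapped the sham libraries in 9 of the 11 higher genes and 1 of the 2 lower genes. Slc15a2 stood at 18.3, 31.0 and 39.0 CPM in control cords and at 30.6, 42.8 and 28.1 CPM in sham cords, so that Nkx6.1 cords alone were low. Cd38 stood at 85.6, 56.5 and 61.7 CPM in control cords and at 39.5, 31.7 and 35.9 CPM in sham cords, with Nkx6.1 cords above both. Ntsr2 stood at 77.3, 144 and 107 CPM in control cords and at 152, 158 and 146 CPM in sham cords. These reference libraries differed from the 6 compared ones in sex-linked transcripts. Xist, of the inactive X, stood at 778, 0.437 and 2.23 CPM in control cords and at 503, 539 and 5.88 CPM in sham cords, against 0.154 to 17.3 CPM in the 6. Ddx3y, a Y-linked gene, stood at 0.755, 91.5 and 88.7 CPM in control cords and at 19.1, 1.03 and 79.7 CPM in sham cords, against 71.0 to 94.8 CPM in the 6. The part of sex in the levels set beside control and sham was not tested.

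The comparisons of each factor with injured control share the control libraries, and each shares its factor's libraries with the direct comparison, so they are given side by side only. Nkx6.1 against control called 55 genes (0.337%), 24 higher and 31 lower, and among them were 9 of the 11 genes above and both Cd38 and Zfand4. The exceptions were Pak7 (adjusted p = 0.0821 in edgeR) and Slc25a18 (adjusted p = 0.0699 in edgeR). The count of 55 was 2571 without Nkx6.1 replicate 3, 6 without Nkx6.1 replicate 2, 7 without Nkx6.1 replicate 1, 204 without Gsx1 replicate 1, 24 without Gsx1 replicate 2 and 121 without Gsx1 replicate 3. It was 0 with only the 12 libraries of 3 days, 143 with limma-voom and 462 with DESeq2. With H2-Bl and Rpl29 levels as covariates, an alternative described below, it was 4. Gsx1 against control called 0 genes (0%) with edgeR and 0 with DESeq2 and limma-voom, with 338 genes at an unadjusted p under 0.05. For Slc15a2 the log2 difference from control was -1.31 ± 0.20 in Nkx6.1 cords and -0.04 ± 0.19 in Gsx1 cords (SE). For Cd38 it was 0.69 ± 0.13 in Nkx6.1 cords and -0.14 ± 0.13 in Gsx1 cords (SE). Over the 13 genes the Gsx1 differences from control lay between -0.14 and 0.33.

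At 35 days, the other time at which both groups were taken (4 Gsx1 and 3 Nkx6.1 libraries), no gene was called between them. The count was 0 (0%) with edgeR and 0 with DESeq2, with 393 genes at an unadjusted p under 0.05. Of the 11 genes higher in Gsx1 cords at 3 days, 5 were on the same side at 35 days, with log2 fold changes of -0.28 to 0.98. Slc15a2 stood at 33.8, 36.2, 40.2 and 34.1 CPM in Gsx1 cords and at 32.5, 29.1 and 34.8 CPM in Nkx6.1 cords at 35 days. Cd38 stood at 47.0, 48.0, 43.9 and 53.0 CPM against 48.6, 44.2 and 53.9 CPM, and Zfand4 at 4.62, 4.93, 5.82 and 5.75 CPM against 5.47, 5.90 and 4.93 CPM. The groups overlapped in Cd38 and Zfand4 and, by one library, in Slc15a2. Slc5a11 had the largest difference, 3.71, 3.16, 3.51 and 3.89 CPM against 1.65, 1.16 and 2.56 CPM, again with Gsx1 cords higher and without overlap (log2 fold change 0.98 ± 0.35, SE, unadjusted p = 0.00923, adjusted p = 1 in edgeR).

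The change of the difference from 3 to 35 days was tested as an interaction. EdgeR called 0 genes (0%), with 1432 at an unadjusted p under 0.05, limma-voom called 0 and DESeq2 called 15. Of the 13 genes, 12 had an unadjusted p under 0.05, but this test reuses the 3-day values that chose them, and their lowest edgeR adjusted p was 0.339. The largest change among them was that of Slc25a18, whose difference moved by -1.29 on the log2 scale (adjusted p = 0.339 in edgeR), from 90.5 ± 25.7 against 45.1 ± 2.47 CPM at 3 days (SD, n = 3 each).

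The number of genes called depended on single libraries. It was 554 (262 higher, 292 lower) without Gsx1 replicate 1 and 1942 (1225 higher, 717 lower) without Nkx6.1 replicate 3, and all 13 genes were among those called in both. Without Gsx1 replicate 2, Gsx1 replicate 3 or Nkx6.1 replicate 2 it was 0, and without Nkx6.1 replicate 1 it was 1. The calls also rested on the spread estimated over all 32 libraries. With only the 6 compared libraries, or only the 12 libraries of 3 days, 0 genes were called, with 1075 and 2088 at an unadjusted p under 0.05. DESeq2 on all libraries called 135 genes in a more even split, 70 higher and 65 lower, with all 13 among them.

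**Figure D3:**
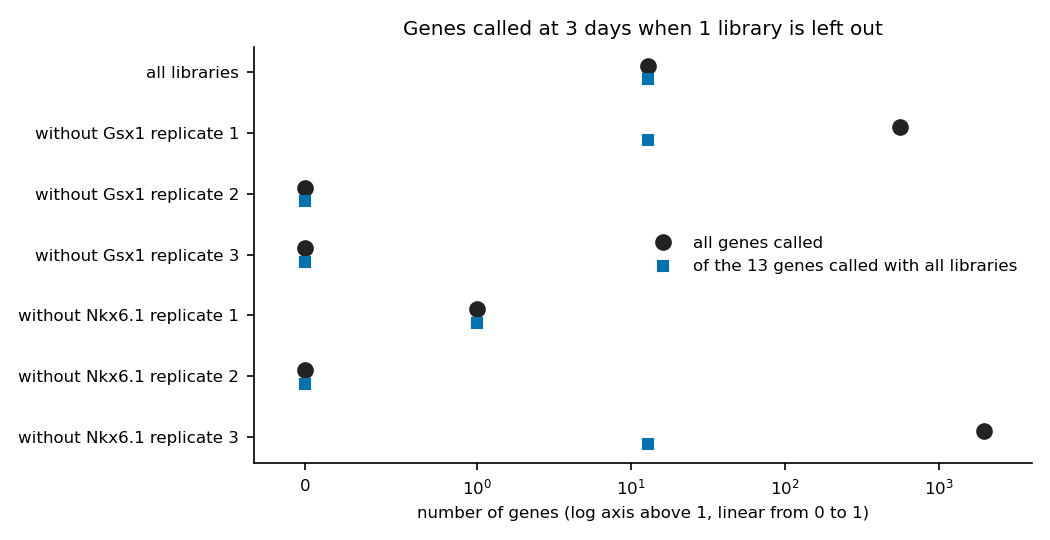
Number of genes called between Gsx1 and Nkx6.1 cords at 3 days (x axis, logarithmic above 1) with all libraries and with each of the 6 libraries left out in turn (y axis). Black circles count all called genes and blue squares count how many of the 13 genes were among them, from 0 of 13 without Gsx1 replicate 2 to 13 of 13 without Gsx1 replicate 1 or Nkx6.1 replicate 3.

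Cell type and pathway lists, 55 in all with 781 tested genes, held none of the 13 called genes. Over all tested genes the median log2 fold change was 0.01 and 8277 of 16314 were higher in Gsx1 cords. At an unadjusted p under 0.05 stood 7.07% of all genes with Gsx1 higher and 7.09% with Gsx1 lower. In the lists below, called means an adjusted p under 0.05 in edgeR with all libraries unless another fit is named. DESeq2 called a member in 13 of the 55 lists, edgeR without Gsx1 replicate 1 in 29 and edgeR without Nkx6.1 replicate 3 in 42. List means, the mean log2 CPM of a list's genes in a library, did not overlap between the groups for 6 lists, or 10.9%, near the 11.7% of single genes without overlap. They were higher in Gsx1 cords for homeostatic astrocyte, glutamatergic, cholesterol synthesis and axon guidance genes, and lower for endothelial and cytosolic ribosomal protein genes. The other 49 lists overlapped. In bulk tissue fewer cells of a type and less RNA per cell cannot be told apart.

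Homeostatic astrocyte genes, the genes of resting grey and white matter astrocytes, were all on the higher side in Gsx1 cords. Their list mean was 9.21, 9.17 and 9.37 in the Gsx1 libraries and 8.97, 8.87 and 8.85 in the Nkx6.1 libraries, with control at 9.04 to 9.34. All 13 of 13 had a positive log2 fold change, with a median of 0.37 and a range of 0.03 to 0.61. Of these, 6 did not overlap and 6 had an unadjusted p under 0.05, while 0 were called with edgeR and 1 with DESeq2. Gja1, the gap junction protein connexin 43, stood at 493, 555 and 730 CPM against 478, 376 and 345 CPM, a log2 fold change of 0.57 ± 0.15 (SE, adjusted p = 0.155 in edgeR). Kcnj10, the potassium channel Kir4.1, stood at 1016, 1239 and 1676 CPM against 849, 790 and 940 CPM. Aldoc, a glycolytic aldolase, overlapped, at 946, 1127 and 1227 CPM against 692, 666 and 981 CPM. The list median stayed between 0.32 and 0.46 with any 1 of the 6 libraries left out.

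**Figure D4:**
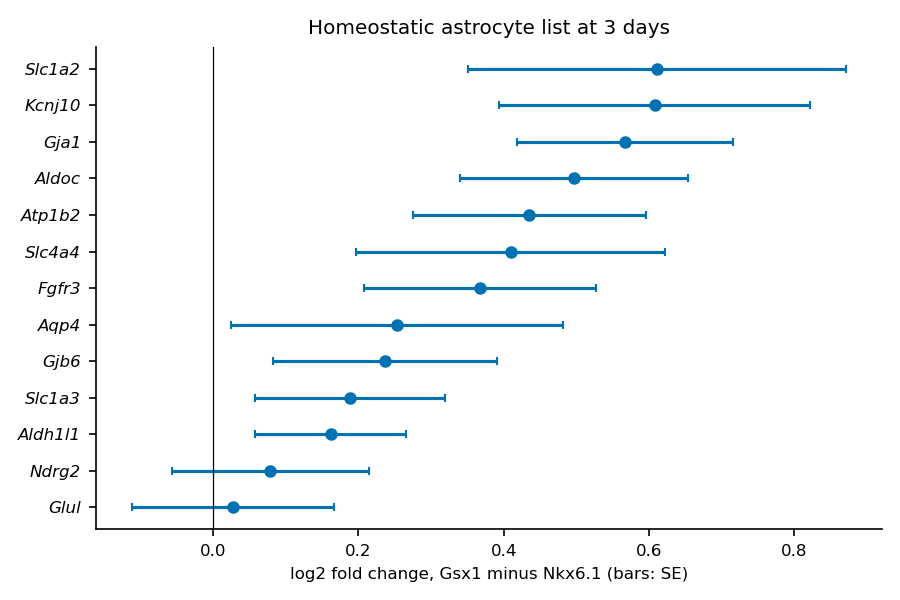
Log2 fold change of Gsx1 minus Nkx6.1 at 3 days (x axis, 3 libraries a group) for the 13 homeostatic astrocyte genes (y axis). Bars are SE from the edgeR fit to all 32 libraries. All 13 lie above 0, from 0.03 to 0.61, and 0 were called with edgeR, 1 with DESeq2.

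Reactive astrocyte genes, which injured astrocytes switch on, lay on the other side. Of 17, 15 were lower in Gsx1 cords, with a median of -0.64, 6 at an unadjusted p under 0.05 and 0 called. The median was -0.82 without Gsx1 replicate 1 (1 called), -0.71 without Nkx6.1 replicate 3 (3 called) and -0.37 without Nkx6.1 replicate 2 (0 called). Serpina3n, a secreted protease inhibitor, stood at 1096, 726 and 515 CPM against 1944, 1755 and 840 CPM. Its groups overlapped, Nkx6.1 replicate 3 lying below Gsx1 replicate 1. Without overlap stood 1 member on the lower and 1 on the higher side. The lower one was Cp, the copper ferroxidase ceruloplasmin, at 76.6, 76.0 and 39.8 CPM against 114, 114 and 108 CPM (log2 fold change -0.81 ± 0.34, SE, adjusted p = 0.297 in edgeR).

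Progenitor and patterning genes, on which the embryonic roles of both factors bear, were not called by edgeR with all libraries. DESeq2 called 1 stem and progenitor gene and 1 Notch pathway gene higher. Msi1, an RNA-binding protein of neural stem cells and astrocytes, had the smallest p of these lists, at 33.5, 34.9 and 42.6 CPM in Gsx1 cords and 26.2, 27.1 and 24.6 CPM in Nkx6.1 cords. Its groups did not overlap, and the log2 fold change was 0.51 ± 0.11 (SE, adjusted p = 0.0896 in edgeR). Of 12 stem and progenitor genes 7 were higher and 5 lower, with a median of 0.11. Of 24 Notch pathway genes 9 were higher and 15 lower, with a median of -0.06, and 2 were called higher without Nkx6.1 replicate 3. Hey1, a Notch target, stood at 41.6, 62.9 and 64.2 CPM against 34.3, 41.2 and 35.7 CPM, a log2 fold change of 0.60 ± 0.15 (SE, adjusted p = 0.155 in edgeR).

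Dorsal spinal transcription factors were higher in Gsx1 cords in 11 of 13 cases, with a median of 0.55 and 1 gene at an unadjusted p under 0.05. That gene was Lmx1b, a factor of dorsal excitatory neurons, at 3.72, 3.24 and 3.91 CPM against 2.00, 1.54 and 2.59 CPM (log2 fold change 0.82 ± 0.35, SE, adjusted p = 0.309 in edgeR). Ventral factors were higher in 11 of 15, with a median of 0.33. At an unadjusted p under 0.05, 2 of them were higher and 1 lower, and the smallest adjusted p of that list was 0.197 in edgeR. Without Nkx6.1 replicate 3 the medians were 0.98 for dorsal (5 of 13 called) and 0.72 for ventral factors (2 of 15 called), and without Nkx6.1 replicate 2 they were 0.21 and 0.14. Without Gsx1 replicate 1 they were 0.70 and 0.33. Gata2, a factor of ventral V2b interneurons and also of blood and vessel cells, was among the 4 that were lower, at 8.67, 9.19 and 7.29 CPM against 9.86, 11.6 and 19.3 CPM. Hedgehog pathway genes were higher in 9 of 12, with a median of 0.39 (0.09 without Gsx1 replicate 3, 0.24 without Nkx6.1 replicate 2) and no call, and Hhip, a Hedgehog-binding inhibitor, stood at 18.0, 27.0 and 46.7 CPM against 17.6, 12.0 and 21.4 CPM.

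Several neuronal lists were higher in Gsx1 cords as a whole, with 0 called. All 16 pan-neuronal genes (median 0.30), all 15 glutamatergic genes (0.52), all 16 GABAergic and glycinergic genes (0.51) and all 17 axonal ion channels (0.39) had positive log2 fold changes. Immature neuron genes did not share this lean. Of 11, 5 were higher and 6 lower, with a median of -0.08 (0.23 without Nkx6.1 replicate 3). At an unadjusted p under 0.05, 0 of them were higher and 1 lower. Snap25, a synaptic vesicle fusion protein, stood at 846, 1269 and 1159 CPM in Gsx1 cords and at 506, 491 and 1292 CPM in Nkx6.1 cords. Nkx6.1 replicate 3 was thus the highest of the 6 and replicates 1 and 2 the lowest. Gad1, which makes GABA, showed the same order of the Nkx6.1 libraries, at 75.1, 100 and 113 CPM against 38.2, 38.7 and 95.3 CPM. Grin2b, an NMDA receptor subunit, did not overlap, at 7.57, 7.93 and 7.17 CPM against 4.24, 3.56 and 6.84 CPM (log2 fold change 0.62 ± 0.26, SE, adjusted p = 0.303 in edgeR).

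The neuronal differences were smaller without Nkx6.1 replicate 2 and larger without Nkx6.1 replicate 3. Without it the edgeR fit called 9 of 16 pan-neuronal genes, 6 of 15 glutamatergic genes, 10 of 16 GABAergic and glycinergic genes and 9 of 17 axonal ion channels higher in Gsx1 cords, with medians of 0.76, 0.83, 1.03 and 0.79. Without Nkx6.1 replicate 2 the same medians were 0.15, 0.33, 0.30 and 0.20, and without Gsx1 replicate 1 they were 0.42, 0.62, 0.65 and 0.50. Motor neuron genes were higher in 9 of 11 (median 0.33, 0.94 without Nkx6.1 replicate 3 and 0.13 without Gsx1 replicate 3), and Chat, which makes acetylcholine, stood at 11.4, 17.4 and 17.8 CPM against 4.00, 9.07 and 16.9 CPM.

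Axon guidance genes were higher in Gsx1 cords in 25 of 30 cases, with a median of 0.22, 6 genes without overlap and 2 called higher with DESeq2. Rgma, a repulsive guidance molecule, stood at 103, 111 and 124 CPM against 92.2, 90.4 and 75.7 CPM, with a log2 fold change of 0.39 ± 0.10 (SE, adjusted p = 0.142 in edgeR). Ephb1, an ephrin receptor, stood at 61.3, 71.1 and 100 CPM against 55.8, 47.7 and 55 CPM. In the Wnt pathway list 12 of 21 genes were higher and 9 lower, with a median of 0.09 and 0 called. At an unadjusted p under 0.05, 1 of them was higher and 2 lower. Wnt7a, a ligand that acts on vessels and glia, was the 1 member without overlap. It was higher, at 18.6, 21.7 and 32.7 CPM against 17.3, 14.7 and 8.78 CPM. In the growth factor list 7 of 16 genes were higher and 9 lower, with a median of -0.12 and 0 called. At an unadjusted p under 0.05, 4 of them were higher and 1 lower. Without overlap, 4 were higher and 3 lower. Of these last, Hgf, hepatocyte growth factor, stood at 5.01, 4.44 and 3.03 CPM against 12.1, 12.2 and 5.66 CPM (log2 fold change -1.26 ± 0.33, SE, adjusted p = 0.155 in edgeR).

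Genes of lipid synthesis and of lipid storage lay on opposite sides. All 17 genes of cholesterol synthesis were higher in Gsx1 cords, with a median of 0.40, 8 at an unadjusted p under 0.05 and 0 called. Their list mean was 5.83, 6.23 and 6.47 in Gsx1 libraries and 5.83, 5.81 and 5.81 in Nkx6.1 libraries, so that Gsx1 replicate 1 cleared the highest Nkx6.1 library only narrowly. Without Gsx1 replicate 1 the median was 0.57 and 5 of 17 were called, and without Gsx1 replicate 3 it was 0.21. Cyp51, a sterol demethylase, stood at 101, 137 and 169 CPM against 99.3, 95.8 and 92.3 CPM. Myelin genes were higher in 11 of 13 (median 0.38, 0.60 with 4 called without Gsx1 replicate 1, 0.13 without Gsx1 replicate 3), among them Fa2h, which hydroxylates myelin lipids, at 110, 175 and 232 CPM against 133, 99.7 and 88.2 CPM. Genes of lipid uptake and storage were lower in 15 of 16 (median -0.64), with 8 at an unadjusted p under 0.05. Their median was -1.18 without Gsx1 replicate 1 (5 called), -0.94 without Nkx6.1 replicate 3 (7 called) and -0.46 without Nkx6.1 replicate 2 (0 called), and DESeq2 called 1. Plin2, a coat protein of lipid droplets, stood at 268, 159 and 93.1 CPM against 535, 529 and 223 CPM (log2 fold change -1.31 ± 0.36, SE, adjusted p = 0.173 in edgeR). Plin4, another droplet protein, did not overlap, at 26.2, 7.32 and 4.02 CPM against 39.2, 39.2 and 77.3 CPM.

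Phagocyte genes were lower in Gsx1 cords in all 20 of 20 cases, with a median of -0.74, 7 at an unadjusted p under 0.05 and 0 called. Lyz2, the lysozyme of macrophages and neutrophils, stood at 1571, 1007 and 587 CPM in Gsx1 cords and at 2602, 2768 and 2067 CPM in Nkx6.1 cords, without overlap (log2 fold change -1.23 ± 0.41, SE, adjusted p = 0.222 in edgeR). Apoe, which macrophages and astrocytes use to export lipid, stood at 4521, 2024 and 3027 CPM against 6174, 6582 and 4558 CPM. Ctsd, a lysosomal protease, overlapped, at 4869, 2858 and 2535 CPM against 6898, 6821 and 4019 CPM. The phagocyte list mean was 8.27, 7.45 and 7.09 in the Gsx1 libraries and 8.71, 8.78 and 7.60 in the Nkx6.1 libraries, and the pan-neuronal list mean was 8.21, 8.60 and 8.65 against 7.72, 7.71 and 8.76. The part of these levels in the 13 calls was not tested. Without Nkx6.1 replicate 3, 7 of 20 were called lower. Without Gsx1 replicate 1 the median was -1.11 with 2 called, and without Nkx6.1 replicate 2 or Gsx1 replicate 3 it was -0.52 and -0.50. Homeostatic microglia genes were lower in 8 of 12 cases, with a median of -0.17 (-0.40 without Nkx6.1 replicate 3, 0.001 without Nkx6.1 replicate 2). The 3 members without overlap, Sall1, Siglech and P2ry12, were on the higher side, and P2ry12, the purine receptor of resting microglia, stood at 44.6, 44.0 and 48.6 CPM against 42.1, 41.8 and 27.1 CPM.

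Dividing cell, scar and vessel genes were lower in Gsx1 cords. All 20 mitosis genes (median -0.64), all 20 DNA replication genes (-0.49) and all 19 scar and collagen genes (-0.71) had negative log2 fold changes, with 0 called and with overlap of the list means. Without Gsx1 replicate 1 the DNA replication and scar medians were -0.82 (4 called) and -0.94 (1 called). Without Nkx6.1 replicate 3 the mitosis, DNA replication and scar medians were -0.97 (1 called), -0.71 (6 called) and -0.99 (1 called), and without Nkx6.1 replicate 2 they were -0.41, -0.27 and -0.47. Kif20a, a kinesin of cell division, stood at 37.0, 24.7 and 22.5 CPM against 53.8, 52.4 and 24.9 CPM. Thbs1, a matrix glycoprotein, stood at 661, 151 and 105 CPM against 882, 1106 and 311 CPM. Gsx1 replicate 1 was high and Nkx6.1 replicate 3 low in both. Endothelial genes were lower in 15 of 16 (median -0.45), and their list mean did not overlap, at 5.89, 5.85 and 5.61 against 6.23, 6.31 and 6.00. Their median lay between -0.55 and -0.34 with any 1 library left out, and DESeq2 called 1 of them. Slc2a1, the glucose transporter of the blood-brain barrier, stood at 340, 255 and 197 CPM against 400, 422 and 408 CPM (log2 fold change -0.63 ± 0.17, SE, adjusted p = 0.155 in edgeR). Pecam1, an endothelial adhesion protein, stood at 86.7, 70.3 and 59.4 CPM against 119, 130 and 96.5 CPM.

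**Figure D5:**
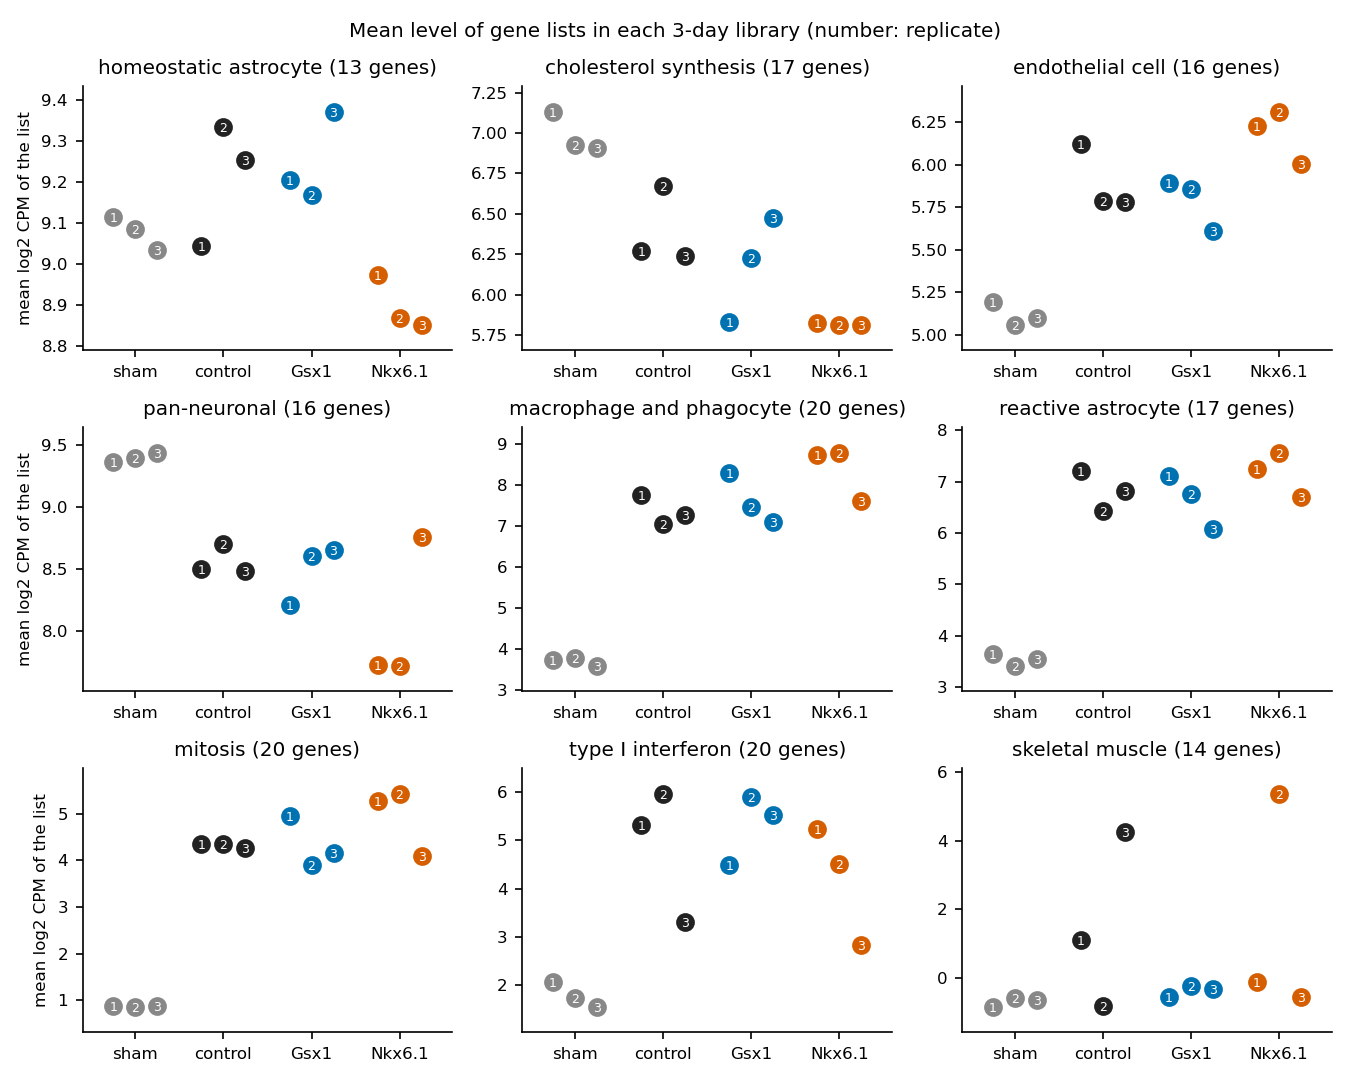
Mean log2 CPM of 9 gene lists (y axis; the scale differs between panels) in each sham, control, Gsx1 and Nkx6.1 library of 3 days (x axis), with the replicate number in each point. Gsx1 and Nkx6.1 libraries do not overlap in the top 3 panels, while in the pan-neuronal, phagocyte, reactive astrocyte and mitosis panels Nkx6.1 replicate 3 lies within or beyond the range of the Gsx1 libraries.

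Type I interferon genes were higher in Gsx1 cords in all 20 of 20 cases, with a median of 0.81 and 0 called, and they varied widely within every injured group. Ifi44, an interferon-induced gene, stood at 5.94, 81.4 and 74.1 CPM in Gsx1 cords, at 14.1, 6.25 and 3.50 CPM in Nkx6.1 cords and at 39.5, 85.6 and 7.62 CPM in control cords. Gsx1 replicate 1 lay within the Nkx6.1 range, and the log2 fold change of 2.77 ± 0.87 missed the threshold (SE, adjusted p = 0.201 in edgeR). The list median was 0.37 without Nkx6.1 replicate 3, 0.49 without Gsx1 replicate 2, 1.46 without Nkx6.1 replicate 1 and 1.08 without Gsx1 replicate 1.

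Cytosolic ribosomal protein genes were lower in Gsx1 cords in all 20 of 20 cases, 13 of them without overlap, by a small amount (median -0.29, 0 called with edgeR or DESeq2). Rps2, a small-subunit protein, stood at 550, 503 and 442 CPM against 641, 739 and 573 CPM. Counts of this family are uncertain, since its genes have many near-identical processed copies and no source here says how reads with several matches were handled. Hox genes of brachial to lumbar cord were higher in all 15 of 15 (median 0.36), and Hoxb9, a thoracic Hox gene, stood at 48.0, 63.0 and 75.2 CPM against 39.5, 29.6 and 46.2 CPM.

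Skeletal muscle genes marked 1 of the 6 libraries. Of 14, 13 were lower in Gsx1 cords with an unadjusted p under 0.05, and the median was -5.34. EdgeR called 0 of the 14, and DESeq2 called 9, all lower. Without Nkx6.1 replicate 3 edgeR called 13 lower and 1 higher. The list mean was -0.10, 5.38 and -0.56 in the Nkx6.1 libraries and -0.57, -0.24 and -0.32 in the Gsx1 libraries. Acta1, skeletal actin, stood at 172 CPM in Nkx6.1 replicate 2 and at 0.540 to 2.31 CPM in the other 5, while Myh2, a myosin heavy chain, stood at 60.7 CPM there and at 0 to 0.231 CPM in the others. The control libraries held Acta1 at 8.08, 1.31 and 49.4 CPM. Without Nkx6.1 replicate 2 the list median was -0.04. In Slc15a2, Ntsr2 and Tst that library lay at 11.1, 53.5 and 22.7 CPM, beside the other Nkx6.1 libraries, and the part of muscle tissue in the calls was not tested.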

How the data were processed

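The authors deposited raw read counts per gene symbol for 32 libraries. The submitters' processing notes name HISAT2, SAMtools, HTSeq, DESeq2 and the build GRCm38 (mm10), while annotation, strand setting and multi-mapping rule are not given in the sources used. The table held 23420 genes, 2504 of them at 0 throughout. After edgeR's expression filter (minimum count 10, total 15), 16314 were tested with edgeR 4.0.16 (R 4.3.3) by the quasi-likelihood test with TMM scaling, in 1 model of 10 groups, and Benjamini-Hochberg adjustment. Genes named are Gsx1, Nkx6-1, up to 12 called genes per direction without overlap and at a mean of at least 1 CPM, and up to 4 members of smallest p per list. Members and lists were chosen with earlier results of these data known. DESeq2 1.42.0, limma-voom (limma 3.58.1), other scalings, filters and subsets of libraries were alternatives, and the code was tested on simulated counts. Coordinates are from GENCODE (GRCm38).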

Additional observations from a re-analysis of the deposited data

How the results depend on the processing

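Since the 13 called genes do not overlap between the groups, their direction cannot turn when a library is left out. Other scaling factors (RLE, upper quartile, library totals) called the same 13. DESeq2 called 135 genes (70 higher, 65 lower in Gsx1 cords), all 13 among them, and 15 genes for the change of the difference from 3 to 35 days. Without the filter on low counts 11 genes were called (10 higher, 1 lower), all among the 13. With at least 1 CPM in 3 of the 6 libraries as the filter, 14 were called (12 higher, 2 lower), all 13 among them. Limma-voom called 10 (8 higher, 2 lower), all among the 13. With only the 6 compared libraries, and with only the 12 libraries of 3 days, 0 were called in either direction. With H2-Bl and Rpl29 levels as covariates, an alternative chosen after seeing the data because both genes stood at clearly separate levels within groups, 7 were called (6 higher, 1 lower), 6 of them among the 13. With 1 library left out the number called ranged from 0 to 1942, higher calls from 0 to 1225, lower calls from 0 to 717, and interaction calls from 0 to 655. The cause of these changes was not tested. The labels do not pair same-numbered libraries, and their deviations from the group means correlated at 0.37, -0.09 and 0.40. With the replicate number as a block within each day 4 genes were called (3 higher, 1 lower), and with the block in the 6 libraries alone 0. With 3 libraries a group, a gene that was not called can still differ between the groups.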

Other observations

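Some levels differed clearly between libraries of 1 group. H2-Bl, a histocompatibility gene, had 34, 286 and 223 reads in the Gsx1 libraries and 24, 29 and 551 in the Nkx6.1 libraries, and Rpl29, a ribosomal protein gene, had 2344, 298 and 2163 against 1902, 2879 and 3141 reads. Both have near-identical copies, so which copy the reads came from is uncertain. The libraries low in H2-Bl were Gsx1 replicate 1 and Nkx6.1 replicates 1 and 2. These were also the libraries with negative values on the leading principal component. Both levels together were the covariates of the fit given above, which was chosen after seeing the data. The part of this split alone in the comparison was not tested. Xist, which coats the inactive X in female cells, stood at 17.3 CPM in Gsx1 replicate 2 and at 0.154 to 1.92 CPM in the other 5 libraries, while Ddx3y, a Y-linked gene, stood at 71.0 to 94.8 CPM in all 6. Hmox1, the heme oxygenase of phagocytes that clear blood, stood at 627, 177 and 178 CPM in Gsx1 cords and at 718, 998 and 431 CPM in Nkx6.1 cords, overlapping between the groups (log2 fold change -1.13 ± 0.40, SE, adjusted p = 0.253 in edgeR).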
